A study of Homo sapiens with 9 samples.

Results

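AP-1 is a transcription factor built from FOS-family and JUN-family proteins, and its 7 genes were followed here across HCT116 cells that overexpressed the long non-coding RNA CRLM1. The members were every gene whose symbol was FOS, FOSB, FOSL1, FOSL2, JUN, JUNB or JUND, which gave 7 of the 31558 genes with counts. HCT116 is a human colorectal cancer cell line. The 9 samples formed 3 groups with 3 biological replicates each. CRLM1-OE cells overexpressed CRLM1, Ctrl cells carried the plasmid without insert, and Anti cells carried the antisense sequence of CRLM1 (antisense-OE). The study's results describe the sequenced cells as transfected. Its methods name plasmid transfection and also a lentiviral pTSB-GFP-puro vector with puromycin selection for expressing CRLM1. They do not say whether the sequenced cells were these selected cells, a pool or a single clone. If they were selected populations, a change made by CRLM1 and a difference between populations cannot be told apart.

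FOS proteins bind DNA only as dimers with JUN proteins, whereas JUN proteins can also pair with each other, and the dimers recognise the sequence TGAGTCA or the related cyclic AMP response element TGACGTCA. FOS, FOSB, JUN and JUNB are immediate early genes, which growth factors and stress switch on within minutes through MAP kinases, serum response factor and CREB. FOSL1 encodes FRA-1, which lacks the strong activation domain of FOS and is known for its high level in invasive carcinoma cells, including those with active RAS signalling.

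The samples held between 33302292 and 44514692 counts, and a floor of 3 counts amounted to 0.0674 to 0.0901 CPM (counts scaled to the library total). The CRLM1 gene had 1522 ± 53.1 FPKM in CRLM1-OE, was listed at 0 in Ctrl, and had 75.4 ± 3.97 FPKM in Anti (SD, n = 3 each), where reads of CRLM1 and of its antisense construct cannot be told apart because the use of strand in counting is not stated. FPKM divides a gene's fragments by its exon length and by all fragments mapped in the sample. The epithelial markers KRT8 (1293 FPKM in CRLM1-OE and 1406 in Ctrl) and EPCAM (74.4 and 87.8 FPKM) were high. Of the 7 colon epithelium markers, 3 were lower in CRLM1-OE than in Ctrl and 4 did not pass, with log2 fold changes of -0.996 for KRT18, -0.35 for EPCAM and -0.24 for KRT8. CDH1 (21.4 FPKM in CRLM1-OE) and CDX2 (3.00 FPKM) were expressed, whereas KRT20 (0.303 FPKM) and VIL1 (0.0133 FPKM) were near 0. Markers of leukocytes and endothelium had group means below 0.1 FPKM, and of the fibroblast markers only COL1A1 passed the test, at 2.2 FPKM in CRLM1-OE and 1.2 in Ctrl. RNA was measured in bulk, so a change in the number of expressing cells and a change in RNA per cell cannot be told apart.

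Regulatory sequence in front of the members is shown first, to set the members side by side at the elements through which immediate early genes are known to be switched on; whether these letters have a part in any level reported here was not tested. The RefSeq promoter table (GRCh38.p14) holds 250 bases before and 50 bases after a gene's start and had an entry for 6 of the 7 members, FOSL1 being the one without. The core of the cyclic AMP response element, TGACGT, was searched on both strands. It occurred in 7.98% of 35116 promoter windows of this length, and among the 6 members it was found in FOS, FOSB, FOSL2 and JUND. JUND held the full palindrome TGACGTCA, which includes the shorter word and occurred in 1.85% of windows. JUN held the variant TGACATCA, known as the site through which JUN and ATF2 act on the JUN gene and present in 2.61% of windows. The stretches below run 5′ to 3′ on each gene's own strand, and capitals mark the word searched.
FOS, chr14:75278744-75278789, forward strand: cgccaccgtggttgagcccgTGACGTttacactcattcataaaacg
FOSB, chr19:45467916-45467961, forward strand: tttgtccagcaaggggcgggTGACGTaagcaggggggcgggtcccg
FOSL2, chr2:28392772-28392817, forward strand: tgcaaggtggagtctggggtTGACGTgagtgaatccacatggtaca
JUN, chr1:58784087-58784134, reverse strand: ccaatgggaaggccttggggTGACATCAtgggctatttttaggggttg
JUND, chr19:18281795-18281842, reverse strand: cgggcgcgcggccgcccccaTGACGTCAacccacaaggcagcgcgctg
The word began 64 bases before the start in FOS, 60 in FOSB, 66 in FOSL2, 67 in JUN and 200 in JUND, where TGACGT recurred 87 bases before the start. The TATA box word TATAAA lay 33, 30 and 31 bases before the start in FOS, FOSB and JUNB, and it occurred in 11.5% of windows. The AP-1 word TGAGTCA, present in 4.95% of windows, was found among the 6 members in FOSL2 only. There it read TGACTCA on the gene's own strand and began 4 bases after the start.

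The binding sequence of serum response factor, the CArG box, was not present between 250 bases before and 50 bases after the start of any of the 6 members. It was searched on both strands in the next stretch as well, which reaches back to 550 bases before the start and was read from GRCh38, where 1.48% of 35116 windows had a match. Among the 6 members, FOS and FOSB had a match, beginning 314 and 274 bases before the start. The matches are shown in capitals with their neighbouring bases, 5′ to 3′ on the forward strand.
FOS, chr14:75278494-75278543: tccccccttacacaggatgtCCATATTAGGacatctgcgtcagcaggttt
FOSB, chr19:45467702-45467745: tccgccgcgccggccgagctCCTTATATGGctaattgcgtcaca
These matches are a description of letters, and no binding was measured in these samples.

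In CRLM1-OE, the transcripts of FOS and FOSB were more than 4 times as abundant as in Ctrl, those of JUN and JUND were moderately higher, and those of FOSL1 were lower. Of the 7 members, 5 were higher in CRLM1-OE than in Ctrl and 2 were lower at an adjusted p of at most 0.05 (edgeR's quasi-likelihood test, Benjamini-Hochberg over all genes), although the direction of 1 of the latter, JUNB, turned with the scaling. Over all 29846 genes tested, 15% were higher and 16.8% lower by the same rule, and the shares were 28.9% and 36.5% of the genes averaging 50 counts or more, to which all members belong. With a fold change of at least 2 as well, the members higher were FOS and FOSB, against 2.5% of all genes and 1.85% of those averaging 50 counts or more. No member was lower by at least 2-fold, against 0.915% of all genes. Against Anti, 5 members were higher, 1 was lower and 1 did not pass, where 17.1% of 30183 genes were higher and 18.5% lower (33.3% and 38.7% of those averaging 50 counts or more). FOS and FOSB were again the members higher by at least 2-fold, with 3.09% of all genes and 2.42% of those averaging 50 counts or more called in that direction, and 2.56% of all genes in the other. The comparisons with Ctrl and with Anti share the CRLM1-OE samples and are not independent.

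**Figure D1:**
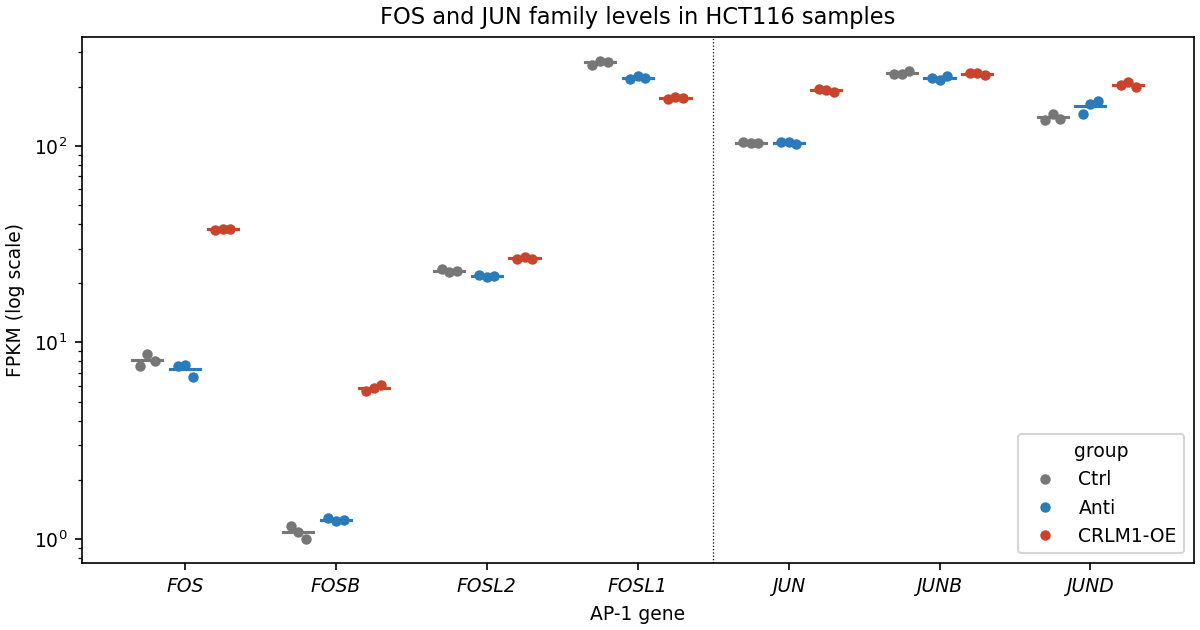
Level of each AP-1 gene in FPKM (log scale) in every sample, with the FOS family left of the dotted line and the JUN family right of it; points are samples and bars are the means of 3 replicates. CRLM1-OE samples lie far above the others for FOS (37.2 to 37.9 FPKM) and FOSB (5.63 to 6.1 FPKM) and below them for FOSL1.

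FOS (ENSG00000170345.9) is the prototype of the family and, in GENCODE version 44, a gene of 4 exons on chromosome 14 (75278826 to 75282230, forward strand, GRCh38). Its level was 37.2, 37.9 and 37.9 FPKM in the 3 CRLM1-OE samples, 7.61, 8.71 and 8.06 in Ctrl, and 7.62, 7.69 and 6.63 in Anti. CRLM1-OE lay above every sample of the other groups, which overlapped each other. The counts behind these levels were 4228 to 5243 in CRLM1-OE, 935 to 1114 in Ctrl and 776 to 1021 in Anti. In log2 terms CRLM1-OE exceeded Ctrl by 2.10 (standard error 0.038, adjusted p = 1e-300, edgeR, the smallest value written) and Anti by 2.32 (standard error 0.037, adjusted p = 1e-300, edgeR).

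FOSB (ENSG00000125740.13), the other FOS-family gene with a full activation domain, has 4 exons on chromosome 19 (45467995 to 45475179, forward strand). It was the least abundant member in every group, with FPKM values of 5.63, 5.85 and 6.1 in CRLM1-OE, 1.16, 1.08 and 1 in Ctrl, and 1.28, 1.23 and 1.25 in Anti. No group overlapped another, and Anti lay slightly above Ctrl. Its log2 fold change against Ctrl was 2.32 (standard error 0.066, adjusted p = 2.27e-269, edgeR) from 219 to 320 counts in Ctrl and 1233 to 1497 in CRLM1-OE. Against Anti it was 2.18 (standard error 0.063, adjusted p = 1.89e-256, edgeR). The whole FOSB gene lies within the span of ERCC1 on the opposite strand (3420 to 5766 counts per sample), and whether reads were counted by strand is not stated, so reads of the 2 genes could be exchanged.

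FOSL1 (ENSG00000175592.8), with 4 exons on chromosome 11 (65892049 to 65900573, reverse strand), was the FOS-family gene that moved the other way. Ctrl samples had 258.6, 270.9 and 268.2 FPKM, Anti samples 218.8, 226.1 and 221.4, and CRLM1-OE samples 173.6, 177.6 and 174.3. The 3 groups were separate, with Anti between Ctrl and CRLM1-OE. The log2 fold change of -0.72 against Ctrl (standard error 0.022, adjusted p = 2.27e-229, edgeR) amounts to 0.608 times the Ctrl level, and that against Anti was -0.39 (standard error 0.020, adjusted p = 3.19e-84, edgeR).

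FOSL2 (ENSG00000075426.11), which encodes FRA-2, has 4 exons on chromosome 2 (28392448 to 28417317, forward strand). Its levels were 26.6, 27.2 and 26.6 FPKM in CRLM1-OE, 23.6, 22.7 and 23 in Ctrl, and 21.96, 21.57 and 21.87 in Anti. CRLM1-OE lay above both other groups by a small margin. The fit put FOSL2 0.10 log2 units above Ctrl (standard error 0.026, adjusted p = 0.000605, edgeR) and 0.25 above Anti (standard error 0.024, adjusted p = 7.43e-25, edgeR). Without TMM factors, scaled to total counts alone, the difference from Ctrl was 0.24. That scaling moved the median of all genes averaging 50 counts or more from -0.04 to 0.11, and FPKM is scaled in a like way.

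JUN (ENSG00000177606.6), the founding JUN-family gene, consists of 1 exon in its reference transcript on chromosome 1 (58776845 to 58784048, reverse strand). CRLM1-OE samples had 193.4, 191.9 and 188.1 FPKM, against 104.6, 102.9 and 103.8 in Ctrl and 104.8, 104.3 and 101.9 in Anti. The Ctrl and Anti samples overlapped and all lay below CRLM1-OE. JUN exceeded Ctrl by 0.77 log2 units (standard error 0.021, adjusted p = 7.59e-285, edgeR) and Anti by 0.84 (standard error 0.018, adjusted p = 1e-300, edgeR), under the 2-fold threshold in both.

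JUND (ENSG00000130522.5), the JUN-family gene known for steady expression in resting cells, has 1 exon on chromosome 19 (18279694 to 18281622, reverse strand). It was at 203.3, 209.9 and 199.5 FPKM in CRLM1-OE, 135.8, 145.1 and 136.8 in Ctrl, and 144.8, 162.9 and 169.3 in Anti. CRLM1-OE lay above all other samples, and the Anti replicates were spread more widely than the rest, reaching down into the range of Ctrl. JUND rose by a log2 fold change of 0.44 against Ctrl (standard error 0.023, adjusted p = 1.03e-78, edgeR) and 0.32 against Anti (standard error 0.020, adjusted p = 2.00e-54, edgeR). The spread in the fit was shared among genes of like abundance. With a prior that lets single genes vary more, the standard error against Anti was 0.064 and the adjusted p from edgeR was 0.0169.

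JUNB (ENSG00000171223.5), which can restrain JUN activity as its dimer partner, has 1 exon on chromosome 19 (12791486 to 12793315, forward strand). Its FPKM levels were 233.6, 233.8 and 228.9 in CRLM1-OE, 230.7, 233.1 and 239.6 in Ctrl, and 222.3, 217 and 225.5 in Anti. CRLM1-OE and Ctrl overlapped in FPKM, and Anti lay below both. In the fit JUNB was lower than in Ctrl by 0.13 on the log2 scale (log2 fold change -0.13, standard error 0.022, adjusted p = 1.99e-08, edgeR), but scaled to total counts the sign turned (0.01, adjusted p = 0.705, edgeR), so that no direction can be given. Against Anti the log2 fold change was 0.02 (95% interval -0.02 to 0.06, adjusted p = 0.449, edgeR). JUNB lies whole within the span of HOOK2 on the opposite strand, which had 888 to 1599 counts per sample.

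**Figure D2:**
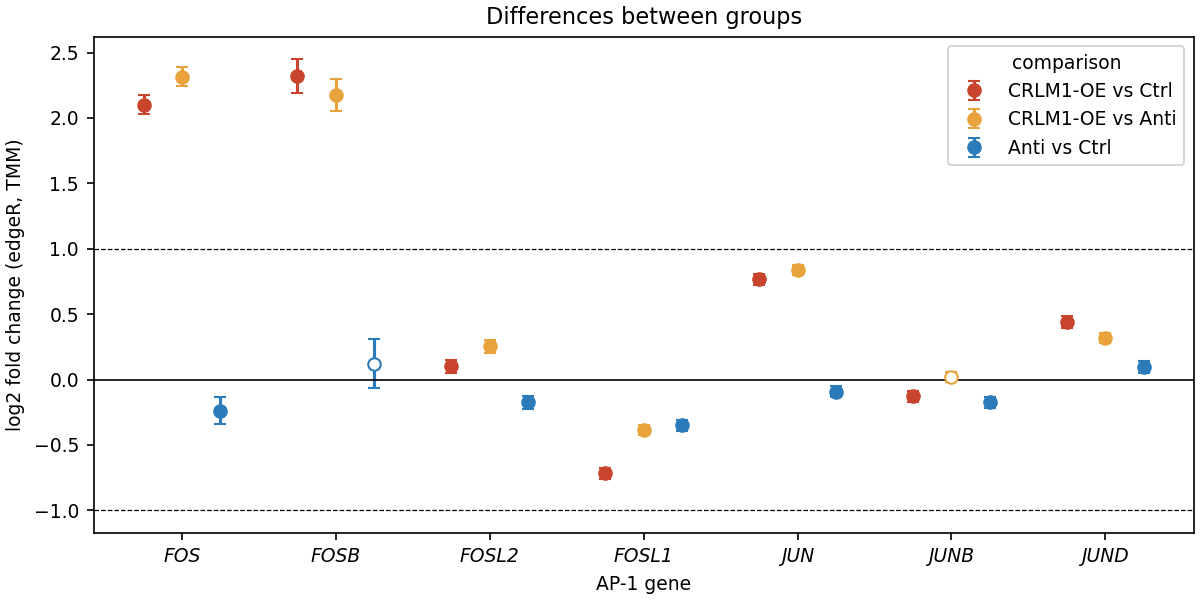
Log2 fold change of each AP-1 gene (edgeR with TMM factors) in the 3 comparisons, with 95% intervals; filled points passed an adjusted p of at most 0.05, open points did not, and dashed lines mark a 2-fold change. FOS and FOSB exceed 2 in both comparisons of CRLM1-OE, while JUNB in CRLM1-OE against Ctrl (-0.13) and JUN in Anti against Ctrl (-0.09) change sign when scaled to total counts.

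The antisense sequence on its own went with small differences in the family. Between Anti and Ctrl 1 member was higher, 5 were lower and 1 did not pass, where 11.5% of 29714 genes were higher and 12.2% lower (24.2% and 26.9% of those averaging 50 counts or more). No member reached a 2-fold change, which 0.683% of genes did upward and 0.38% downward. FOSL1 fell by 0.35 (standard error 0.021, adjusted p = 1.28e-58, edgeR), the widest difference among the members. FOS differed by -0.24 (adjusted p = 7.43e-05, edgeR), FOSL2 by -0.18 (adjusted p = 6.54e-10) and JUNB by -0.17 (adjusted p = 2.54e-14) on the log2 scale. The value for FOS was -0.13 when scaled to total counts (adjusted p = 0.0528, edgeR), and that for FOSL2 was -0.07. JUN was at -0.09 (adjusted p = 0.000196, edgeR) with TMM factors and at 0.01 (adjusted p = 0.737, edgeR) with total counts, so its direction depended on the scaling. FOSB had a log2 fold change of 0.12 (95% interval -0.07 to 0.31, adjusted p = 0.471, edgeR). The single higher member was JUND, at 0.10 (standard error 0.023, adjusted p = 0.000163, edgeR). That call was lost without the third Anti sample (0.06, adjusted p = 0.11), with the more permissive prior (adjusted p = 0.244) and with DESeq2 (adjusted p = 0.311), and without the first Anti sample the log2 fold change was 0.16.

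Set side by side, the FPKM ranges of CRLM1-OE and Ctrl did not overlap for 6 of the 7 members, those of CRLM1-OE and Anti for 7, and those of Anti and Ctrl for 4. In CPM with TMM factors, the members without overlap numbered 7, 6 and 6 in the same comparisons, so these numbers depended on the scaling. Over all genes with a value, 36.6%, 40.1% and 30.9% did not overlap in FPKM. Those shares include genes with few counts and are no matched background for the members. The share among genes of like abundance was not worked out. FPKM takes length into account, so the members can also be ranked within a group. In Ctrl the order was FOSL1 (265.9 ± 6.47 FPKM), JUNB (234.4 ± 4.62), JUND (139.2 ± 5.11), JUN (103.8 ± 0.870), FOSL2 (23.1 ± 0.463), FOS (8.13 ± 0.553) and FOSB (1.08 ± 0.0800), each as mean ± SD over 3 samples. No neighbours in that order overlapped. Anti had the same order, but there FOSL1 (222.1 ± 3.66 FPKM) and JUNB (221.6 ± 4.27 FPKM) overlapped. In CRLM1-OE the order was JUNB (232.1 ± 2.74 FPKM), JUND (204.3 ± 5.28), JUN (191.1 ± 2.73), FOSL1 (175.1 ± 2.12), FOS (37.7 ± 0.361), FOSL2 (26.8 ± 0.364) and FOSB (5.86 ± 0.235), again with no overlap between neighbours. FOSL1 thus stood in the first place in Ctrl and in the fourth in CRLM1-OE, and FOS stood above FOSL2 in CRLM1-OE only among the 3 groups.

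In CRLM1-OE, FOSL1 took a smaller and FOS a larger share of the FOS-family transcripts than in the other groups. FOSL1 accounted for 89.2% ± 0.2504 of the summed FOS-family FPKM in Ctrl, 88.0% ± 0.286 in Anti and 71.3% ± 0.146 in CRLM1-OE (SD, n = 3 each). FOS accounted for 2.72% ± 0.132, 2.90% ± 0.224 and 15.3% ± 0.109 in the same groups, and FOSB for 0.363% ± 0.0333, 0.497% ± 0.0166 and 2.39% ± 0.0920. FOSL1 was the most abundant FOS-family transcript in all 3 groups. The share of FOSL2 was 7.75% ± 0.326 in Ctrl, 8.64% ± 0.203 in Anti and 10.9% ± 0.0474 in CRLM1-OE. There was 0.0305 ± 0.00142 FPKM of FOS for each FPKM of FOSL1 in Ctrl, 0.0329 ± 0.00261 in Anti and 0.215 ± 0.00196 in CRLM1-OE. The 3 CRLM1-OE samples lay outside the range of the other 6 in each of these measures.

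Among the JUN-family transcripts, JUN made up 21.7% ± 0.424 of the summed FPKM in Ctrl, 21.4% ± 0.855 in Anti and 30.5% ± 0.251 in CRLM1-OE, and CRLM1-OE lay above both other groups. JUNB made up 49.1% ± 0.733, 45.8% ± 1.19 and 37.0% ± 0.184 in Ctrl, Anti and CRLM1-OE. The share of JUND was 29.2% ± 0.885 in Ctrl, 32.8% ± 1.85 in Anti and 32.6% ± 0.418 in CRLM1-OE, with the last 2 overlapping. Summed over its members, the FOS family had 298.2 ± 6.47 FPKM in Ctrl, 252.5 ± 3.61 in Anti and 245.5 ± 2.79 in CRLM1-OE. The summed JUN family had 477.4 ± 5.52, 484.2 ± 12.4 and 627.5 ± 9.85 FPKM. There was accordingly less FOS-family than JUN-family transcript in every group, at a ratio of 0.625 ± 0.00656 in Ctrl, 0.522 ± 0.0137 in Anti and 0.391 ± 0.00577 in CRLM1-OE. Each difference without overlap had a two-sided exact permutation p of 0.1, the smallest that 3 samples against 3 can give, and 0.118 after adjustment over the 33 tests of shares, sums and ratios, so none could pass a threshold of 0.05.

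**Figure D3:**
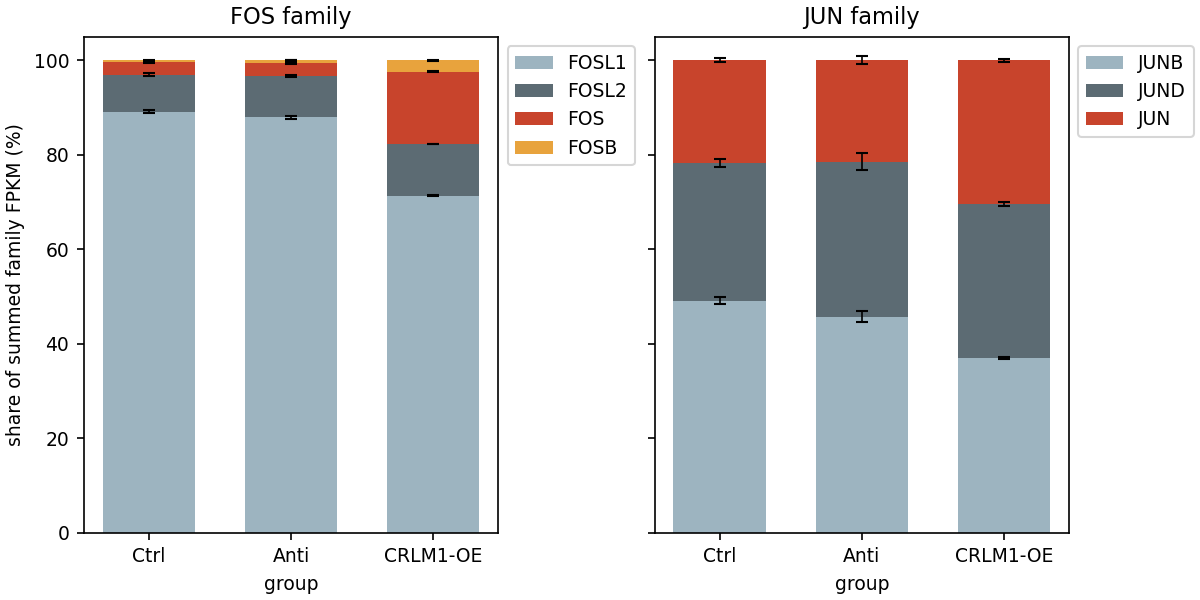
Share of each gene in the summed FPKM of the FOS family (left) and the JUN family (right), in percent, as stacked means of 3 samples with SD. In CRLM1-OE the FOS segment is 15.3% against 2.72% in Ctrl, and the JUN segment is 30.5% against 21.7%.

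Transcripts of the proteins that pair with the members changed in both directions. Of the 12 dimer partners tested (ATF, BATF, JDP2 and large and small MAF genes), 4 were higher, 4 lower and 4 did not pass in CRLM1-OE against Ctrl, at a median of 0.18 on the log2 scale beside 0.02 over all genes tested. The small MAF genes MAFK (log2 fold change 0.78) and MAFG (0.48) rose, as did MAFA (0.36, adjusted p = 0.00306). JDP2, which forms repressive dimers with JUN proteins, fell by 0.64 on the log2 scale. Against Anti, 7 were higher, 1 lower and 4 did not pass (median 0.24, beside -0.02 over all genes), with MAFK (0.65) and MAFF (0.54) higher and JDP2 (-0.75) lower. Among all genes averaging 50 counts or more, 28.9% were higher and 36.5% lower against Ctrl, and 33.3% and 38.7% against Anti.

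The enzymes that activate AP-1 showed no common direction. Among 20 MAP kinases, their activators and the RSK kinases, 5 were higher, 7 lower and 8 did not pass in CRLM1-OE against Ctrl (median -0.03), and scaled to total counts 9 were higher and 4 lower. For comparison, 28.9% of all genes averaging 50 counts or more were higher and 36.5% lower against Ctrl, and 33.3% and 38.7% against Anti. MAP2K3 (log2 fold change 0.55), MAPK11 (0.45) and MAPK8 (0.36) rose, MAPK8 encoding JNK1, which phosphorylates JUN. MAP2K5 fell by 0.50, and other genes of the stress kinase branches, named after their values were seen, fell as well, MAPK9, which encodes JNK2, by 0.33 and MAPK13 by 0.25. Against Anti, 10 were higher, 6 lower and 4 did not pass (median 0.09), and MAP2K3 (0.64), MAPK8 (0.57) and MAP2K1 (0.35) were among those higher. These are transcript levels, and kinase activity was not measured.

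Transcription factors that act on FOS and JUN promoters changed in both directions. Of 13, 4 were higher, 8 lower and 1 did not pass against Ctrl (median -0.18), and 5 and 4 when scaled to total counts. The shares of all genes averaging 50 counts or more were 28.9% higher and 36.5% lower against Ctrl, and 33.3% and 38.7% against Anti. SRF, the factor known to recognise CArG boxes, rose from 27.3 to 40.4 FPKM (log2 fold change 0.45, standard error 0.028, adjusted p = 1.65e-58, edgeR), and CREM rose by 0.53. Binding of SRF to the matches shown above was not measured, and a part of SRF in the levels of FOS and FOSB was not tested. SP1 fell by 0.45, and CREB1, which binds cyclic AMP response elements, fell by 0.33. Against Anti, 4 were higher, 6 lower and 3 did not pass (median -0.08), with MEF2D (0.56) and CREM (0.57) higher and MKL2 (-0.62) and ELK4 (-0.54) lower. CREB1 did not pass against Anti (log2 fold change -0.08, adjusted p = 0.149, edgeR), so its fall was seen against Ctrl only.

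Genes that set the turnover of FOS and JUN transcripts and proteins numbered 10, of which 3 were higher, 5 lower and 2 did not pass against Ctrl (median -0.11), while 4 were higher and 3 lower when scaled to total counts (median 0.03). Beside these stand 28.9% higher and 36.5% lower of all genes averaging 50 counts or more against Ctrl, and 33.3% and 38.7% against Anti. FBXW7, a ubiquitin ligase component that marks JUN for degradation, rose from 1.43 to 2.71 FPKM (log2 fold change 0.80), and ITCH, a ligase for JUN and JUNB, fell by 0.53. HNRNPD, whose protein AUF1 binds AU-rich elements such as that of FOS mRNA, fell by 0.59, while ZFP36L2, of the same kind of function, rose by 0.43. Against Anti, 2 were higher, 5 lower and 3 did not pass (median -0.12), with HNRNPD at -0.82, ITCH at -0.47 and FBXW7 at 0.44.

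Known target genes of AP-1 changed in both directions. Of 22, 4 were higher, 10 lower and 8 did not pass in CRLM1-OE against Ctrl (median -0.21), beside 15% higher and 16.8% lower over all genes and 28.9% and 36.5% of those averaging 50 counts or more. Scaled to total counts, 5 were higher and 8 lower. Among those averaging 50 counts or more, HMOX1, which encodes haem oxygenase, rose from 19.6 to 64.2 FPKM (log2 fold change 1.59, adjusted p = 1e-300, edgeR). PLAU, the urokinase gene and a well known target of FRA-1 and JUN, fell by 0.73 (from 129.1 to 84.3 FPKM, adjusted p = 6.49e-208, edgeR), and the matrix protease gene MMP7 fell by 1.12 at a low level (1.48 to 0.720 FPKM). Against Anti, 7 were higher, 7 lower and 8 did not pass (median 0.09). Over all genes, 17.1% were higher and 18.5% lower against Anti (33.3% and 38.7% of those averaging 50 counts or more). There PLAU was lower by 1.07, CXCL8 by 1.34 and MMP7 by 1.54, and HMOX1 was higher by 1.30. The Anti means themselves lay above those of Ctrl for these genes. They were 171.4 FPKM against 129.1 for PLAU, 13.3 against 7.76 for CXCL8, 2.08 against 1.48 for MMP7 and 25.2 against 19.6 for HMOX1. Against Ctrl, CXCL8 had a log2 fold change of -0.63.

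Most other immediate early genes were higher in CRLM1-OE. Of 14, 11 were higher, 1 was lower and 2 did not pass against Ctrl (median 0.43), and 12 were higher and 2 lower against Anti (median 0.65). Of all genes averaging 50 counts or more, 28.9% were higher and 36.5% lower against Ctrl, and 33.3% and 38.7% against Anti. Against Ctrl the log2 fold changes were 1.23 for EGR3 (standard error 0.14), 1.01 for IER5, 0.90 for NR4A1 and 0.75 for NR4A3. All 4 were smaller than those of FOS and FOSB, and EGR3 and NR4A3 were rare transcripts, at 1.06 and 0.457 FPKM in CRLM1-OE. Against Anti they were 1.34, 0.99, 1.27 and 1.26. Between Anti and Ctrl, 1 of the 14 was higher, 7 were lower and 6 did not pass (median -0.17), but scaled to total counts 4 were higher and 5 lower (median -0.07). In that comparison with TMM factors, 24.2% of all genes averaging 50 counts or more were higher and 26.9% lower. NR4A1 had a log2 fold change of -0.39 there with TMM factors.

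Heat-shock genes, which respond to stresses that also induce FOS and JUN, were all higher in CRLM1-OE, 8 of 8 against each control, with medians of 0.85 against Ctrl and 0.74 against Anti. Of all genes averaging 50 counts or more, 28.9% were higher against Ctrl and 33.3% against Anti. HSPA6 stood at 0.273 FPKM in Ctrl, 0.760 in Anti and 4.36 in CRLM1-OE, a rise by 3.90 log2 units against Ctrl (standard error 0.14, adjusted p = 2.80e-166, edgeR) and 2.49 against Anti (adjusted p = 8.18e-106). HSPH1 rose by 0.92 against Ctrl. HSPA1A ranged from 28.3 to 55.5 FPKM over the CRLM1-OE samples and from 4.24 to 5 over those of Ctrl, a log2 fold change of 3.12 with a standard error of 0.37 under the more permissive prior (adjusted p = 0.00412, edgeR). Its near-identical copy HSPA1B (1.42) can take part of its reads. Between Anti and Ctrl, the heat-shock genes were 3 higher, 3 lower and 2 not passing (median -0.01), HSPA6 being higher by more than 2-fold (log2 fold change 1.39, adjusted p = 1.62e-09, edgeR). The same comparison gave 2 higher and 4 lower of 11 dimer partners tested, 2 and 9 of 19 MAP kinase genes, 4 and 5 of 13 promoter factors, 3 and 4 of 10 turnover genes, and 7 and 4 of 22 AP-1 target genes. Scaled to total counts, these numbers were 5 and 2 for heat-shock genes, 3 and 3 for dimer partners, 5 and 5 for MAP kinase genes, 5 and 3 for promoter factors, 3 and 0 for turnover genes, and 9 and 4 for target genes, so the balance of higher and lower depended on the scaling. With TMM factors, 24.2% of all genes averaging 50 counts or more were higher in Anti than in Ctrl and 26.9% lower. Whether the heat-shock transcripts have a part in the levels of FOS and JUN was not tested.

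**Figure D4:**
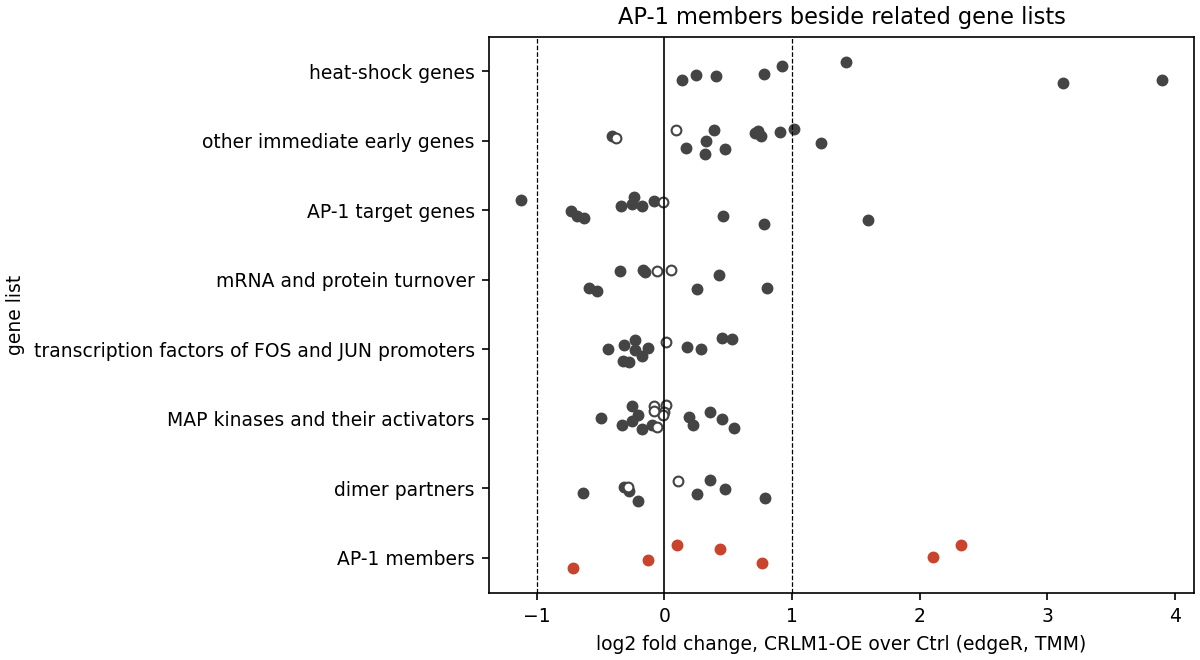
Log2 fold change in CRLM1-OE over Ctrl (edgeR with TMM factors) of the 7 AP-1 members and of those genes of each related list that averaged 50 counts or more; each point is a gene, filled where the adjusted p was at most 0.05 and open where not, and dashed lines mark a 2-fold change. Immediate early and heat-shock genes lie mostly to the right of 0, while AP-1 target genes lie on both sides; scaled to total counts, the MAP kinases turn from 5 higher and 7 lower to 9 and 4, and the median of all genes rises from -0.04 to 0.11.

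Across the 9 samples, the members fell into patterns that the group means largely set. The log2 levels (CPM with TMM factors) of FOS, FOSB and JUN had Pearson correlations of 0.985 (FOS with FOSB), 0.998 (FOS with JUN) and 0.989 (FOSB with JUN). JUND correlated at 0.876 with FOS and 0.880 with JUN, FOSL2 at 0.838 with FOS, and FOSL1 at -0.841 with FOS and -0.903 with JUND. JUNB was correlated at 0.741 with FOSL1 and -0.312 with FOS. These values describe 9 samples in 3 clusters, share the libraries and are no test of a relation.

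The genes with a pattern most like a member's were picked by Pearson correlation over the 9 samples from 11702 genes averaging 100 counts or more. FOS was closest to HSPB8 (0.999), which encodes a small heat-shock protein, and to YWHAH (0.998) and SEMA7A (0.997), and the same YWHAH (0.999) and SEMA7A (0.999) were closest to JUN, followed by PITPNM1 (0.998). FOSB was closest to F2RL1 (0.999), TUFT1 (0.999) and PPP1R15A (0.998), the last encoding the stress-induced phosphatase subunit GADD34. FOSL1 went with RPL13A (0.997), PLEKHA2 (0.996) and NOA1 (0.996), and FOSL2 with LASP1 (0.996), MMS19 (0.995) and OVGP1 (0.994). JUNB and JUND had the least close neighbours, NDUFA9 (0.987), MRPL10 (0.986) and ST3GAL4 (0.984) for JUNB and FOXD1 (0.991), BEND7 (0.990) and SPTSSA (0.989) for JUND.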

How the data were processed

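PolyA RNA of 9 HCT116 samples was sequenced by the authors as 151 nt read pairs. The authors trimmed reads with the FASTX-Toolkit, dropped those under 16 nt, aligned the rest to GRCh38 (Gencode version 23) with TopHat2 at up to 4 mismatches, and deposited, without normalization, how many uniquely mapped reads each gene had (counts). The authors also deposited FPKM values, scaled for exon length and mapped fragments. Both tables hold genes called expressed, by a criterion not given in the sources used here, nor is the use of strand.

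Counts of 6 samples per comparison were fitted here with edgeR 4.0.16 in R 4.3.3 (TMM, glmQLFit, glmQLFTest) for all genes with at least 1 count, with Benjamini-Hochberg adjustment over all of them. The fit's prior was infinite, so spread was shared along a trend in abundance; 95% intervals are 1.96 standard errors. P-values therefore rest on a replicate spread pooled over genes of like abundance, and not on the spread of each gene alone. In the simulated CRLM1-OE and Ctrl data of 29846 genes, 83% of planted log2 changes of 0.5 and 99% of those of 1 were recovered. Family shares used FPKM and exact permutation tests (scipy 1.17.1). The alternatives were RLE factors, total counts, filterByExpr, at least 10 counts in every sample, DESeq2 1.42.0, limma 3.58.1 on log2(FPKM + 0.1) and log2(FPKM + 1), a joint fit of the 9 samples, a replicate block, the removal of each replicate in turn, and a robust prior, chosen after seeing the data.

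Members and gene lists were chosen with earlier results of these data known. All members are named, and from each list the genes with the largest change in a comparison, up to 4, among those with an adjusted p of at most 0.05 and a mean count of at least 50. Of the listed genes, BATF, CD3E and LUM were not analysed here. Some genes that this rule picks are not reported here. Floors cover counting error only. Promoter sequences are from RefSeq (GRCh38.p14), gene positions from GENCODE version 44.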

Additional observations from a re-analysis of the deposited data

How the results depend on the processing

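The rises of FOS, FOSB, FOSL2, JUN and JUND and the fall of FOSL1 in CRLM1-OE passed against both controls under each of the 17 settings run. The number of members lower in CRLM1-OE than in Ctrl was 2 and became 1 with total counts and with limma on log2(FPKM + 0.1) or log2(FPKM + 1), the member lost being JUNB (0.0123 with total counts). Between Anti and Ctrl, the 1 higher member became 0 with DESeq2, with both limma fits and with the robust prior, and ranged from 0 to 1 with single replicates left out; the 5 lower members became 3 with total counts and both limma fits, and JUN turned to 0.0121 with total counts. JUNB against Anti passed with total counts (0.08), and with limma on log2(FPKM + 0.1) and log2(FPKM + 1) (both 0.07). The difference in the share of JUN between Anti and Ctrl, -0.31 percentage points, was -0.71 to 0.14 with single replicates left out, and that of JUND between CRLM1-OE and Anti, -0.25, was -1.32 to 0.39. With total counts, genes higher and lower at an adjusted p of at most 0.05 in CRLM1-OE against Ctrl were 6649 and 2951 in place of 4462 and 5016, and in Anti against Ctrl 5500 and 2029 in place of 3406 and 3635. Genes called at 2-fold numbered 745 higher and 273 lower against Ctrl, and 535 and 164 with DESeq2 or 81 and 17 with limma on log2(FPKM + 1); FPKM near 0 limits the last. The causes of these shifts were not tested. Replicate numbers did not pair the samples (same-numbered samples had residual correlations between -0.088 and 0.081). In a fit with a replicate block, the members higher and lower were 5 and 2 against Ctrl, 5 and 1 against Anti, and 1 and 5 for Anti against Ctrl, so the block changed no call. Depth limits FOSB most, with 219 to 320 counts in Ctrl.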
